A study of Mus musculus with 62 samples.

Results

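Gastrocnemius muscle of mice injected with cachectic melanoma cells (CAC) was compared with that of mice injected with non-cachectic melanoma cells (NCAC), both taken 4 weeks after the injection. The comparison rests on 10 of the 62 RNA-seq libraries of the study, 5 CAC and 5 NCAC, and they were chosen by their labelled group and week, with no expression value used. All mice were female and 2 months old when injected, and 5 libraries of mock-injected mice (Con) of the same week are shown beside them. The sources differ on the strain, with NCI Ath/nude mice in the design text and C57BL/6J on the samples. The labels give the tumour cells by these names alone, and a difference between CAC and NCAC is one between 2 kinds of tumour cells.

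In cachexia some tumours cause the host to waste muscle and adipose tissue. Cytokines of the interleukin-6 family bind receptors that share the gp130 chain, Janus kinases then activate the transcription factor STAT3, and STAT3 switches on its own brake, SOCS3. In wasting muscle, glucocorticoids and FoxO factors are known to raise the ubiquitin ligases MuRF1 (Trim63) and atrogin-1 (Fbxo32), which mark muscle proteins for the proteasome. In mice most fibres of this calf muscle are of the fast type.

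Values are in TPM, a level corrected for transcript length and relative to all RNA of a library. A log2 difference is CAC minus NCAC on log2(TPM + 1), with its SE, and a gene is called higher or lower where the Benjamini-Hochberg adjusted p of limma was below 0.05. Of 12364 genes tested, 2435 (19.7%) were called, 2238 higher in CAC (18.1%) and 197 lower (1.59%). Only 117 of the higher and 21 of the lower genes passed 2-fold, and the median difference over all genes was 0.17. When the libraries were rescaled to a common median ratio, that median moved to 0.0054 and 1000 genes were called (8.09%), 367 higher (2.97%) and 633 lower (5.12%). The split between higher and lower calls therefore depends on the scaling, and small differences are described below relative to that shift. Counts of calls in gene lists are to be read beside the share of all genes called in the same fit.

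One CAC library stood apart. CAC replicate 2 had 1397 genes more than 2-fold away from the NCAC mean, the other 4 CAC libraries had 130 to 321, the NCAC libraries 87 to 137 and the Con libraries 43 to 174. The median SD of a gene on the log2 scale was 0.214 in CAC, 0.132 in CAC without replicate 2 and 0.133 in NCAC. CAC replicate 2 was the highest CAC library for 91.1% of the genes called higher and for 63.0% of all genes tested. Without it, 274 genes were called (2.22%), 260 of them higher (2.1%) and 14 lower (0.113%). With CAC and NCAC alone in the fit, 431 were called (3.49%), 405 higher (3.28%) and 26 lower (0.21%). A core of 189 genes (1.53%) was called with the TPM as deposited and also with each of the 10 libraries left out in turn, with median-ratio scaling, with the 2 groups alone, with array weights, with the replicate number as a block and with a pseudocount of 0.1. CAC replicate 2 was also the highest CAC library for 147 of the core genes that rose (82.1%). "Under every alternative" below means membership of this core, that is, called in each of the fits listed above. Other filters on low values were not part of it. Nor were rescaling with CAC replicate 2 left out, and leaving out 4 libraries rich in hepatocyte RNA. Those last fits called 188 and 115 genes, fewer than the core holds. Of the core, 179 genes were higher (1.45%) and 10 lower (0.0809%), and all CAC libraries lay above all NCAC libraries in 176 and below them in 9, which over all genes tested was so for 1656 (13.4%) and 117 (0.946%).

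Depth, estimated in M reads, ranged from 46.2 to 46.6 for CAC, from 44.7 to 47.3 for NCAC and from 45.7 to 47.5 for Con, and so differed little. Markers of skeletal muscle fibres summed to between 138000 and 163260 TPM in CAC and between 136660 and 158590 TPM in NCAC. Of 10 melanocyte markers, 8 did not pass the filter on low values, and all 10 summed to 5.65 to 11.6 TPM in CAC and 5.37 to 7.61 TPM in NCAC.

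Stat3, Socs3, Junb and Osmr, all of the interleukin-6 and STAT3 axis, were higher in each CAC library than in any NCAC library. Stat3, the transcription factor itself (chr11:100885098-100939540, minus strand, build mm10), had 34.2, 52.4, 42.9, 44.3 and 41.6 TPM in the CAC libraries, against 13.1, 12.2, 10.7, 10.7 and 12.7 TPM in the NCAC libraries. All 5 CAC values lay above all 5 NCAC values. The log2 difference was 1.76 with an SE of 0.129 (limma adjusted p = 4.63e-15), a 3.40-fold difference on TPM + 1. In the mock-injected mice Stat3 stood at 10.3 to 11.9 TPM, overlapping NCAC.

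Socs3, the feedback inhibitor (chr11:117966079-117970047, minus strand, mm10), had 40.3, 49.2, 70.0, 61.4 and 59.8 TPM in CAC, against 5.83, 2.59, 4.92, 5.15 and 4.06 TPM in NCAC. The groups were far apart, and here CAC replicate 2 was not the highest library. The log2 difference was 3.38 with an SE of 0.417 (limma adjusted p = 1.74e-07). Junb, an AP-1 subunit that responds within minutes to cytokines, had 39.2, 108, 35.5, 60.9 and 60.7 TPM in CAC, against 9.16, 6.77, 12.9, 8.42 and 10.8 TPM in NCAC, a log2 difference of 2.46 with an SE of 0.348 (limma adjusted p = 2.90e-06). Again no CAC library reached down to NCAC. Of the 16 STAT and SOCS genes tested, 3 rose and 0 fell with the TPM as deposited, a share close to the 18.1% of all genes: Stat3, Socs3 and Stat5b. After rescaling 2 of the 16 were higher, beside 2.97% of all genes, and without CAC replicate 2 also 2, beside 2.1%. Stat5b differed by only 0.28 and was not called after rescaling (adjusted p = 0.689) or without CAC replicate 2 (adjusted p = 0.305).

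On the receptor side, 4 of 10 genes rose and 0 fell, 3 of them under every alternative. Osmr, the receptor chain for oncostatin M, had 2.88, 8.60, 4.18, 5.02 and 2.39 TPM in CAC and 1.24, 1.59, 0.904, 1.498 and 1.15 TPM in NCAC. The lowest CAC library still lay above all NCAC libraries, and the log2 difference was 1.21 with an SE of 0.195 (limma adjusted p = 3.71e-05). Jak3, a Janus kinase best known from lymphocytes, was at 4.80 to 8.02 TPM in CAC and 1.84 to 3.04 TPM in NCAC (log2 difference 1.12). Il6st, which encodes gp130, was at 38.2 to 68.1 TPM in CAC and 32.5 to 36.5 TPM in NCAC (log2 difference 0.55). Jak1 was the fourth called, and its call was lost after rescaling (adjusted p = 0.605). Il6ra, the interleukin-6 binding chain, named after its values were seen, had 1.68, 22.1, 2.47, 8.88 and 1.26 TPM in CAC against 1.23 to 3.23 TPM in NCAC and was not called (adjusted p = 0.152). Of the 8 cytokines of the family, 6, among them Il6, Lif and Osm, did not pass the filter on low values, so their RNA was too low in the muscle to test, and the other two, Ctf1 and Cntf, were not called.

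**Figure D1:**
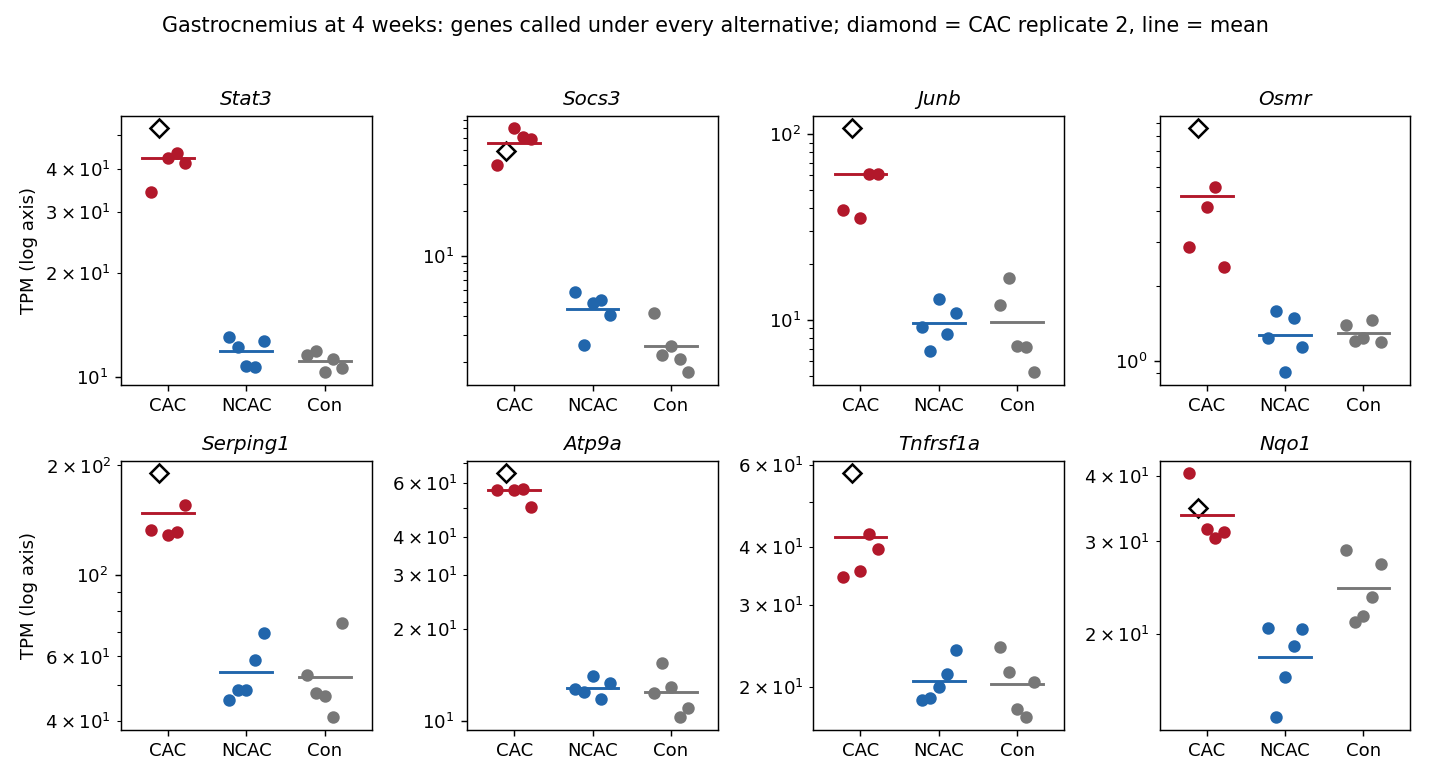
TPM per library at 4 weeks (log axis) for 8 genes in CAC, NCAC and Con muscle, with the mean as a line and CAC replicate 2 as an open diamond. For all 8 genes every CAC library lies above every NCAC library, as for Stat3 with 34.2 to 52.4 TPM in CAC and 10.7 to 13.1 TPM in NCAC.

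Promoter sequence is shown for core genes whose window holds the palindrome TTCNNNGAA, the letters to which STAT dimers are known to bind, because Stat3 had the lowest adjusted p of all genes tested. The windows are those of RefSeq on build GRCm38.p6, 250 bases before to 50 after a gene's start, printed 5′ to 3′ on the strand of the gene with the match in capitals.
Socs3, chr11:117969317-117969616, minus strand: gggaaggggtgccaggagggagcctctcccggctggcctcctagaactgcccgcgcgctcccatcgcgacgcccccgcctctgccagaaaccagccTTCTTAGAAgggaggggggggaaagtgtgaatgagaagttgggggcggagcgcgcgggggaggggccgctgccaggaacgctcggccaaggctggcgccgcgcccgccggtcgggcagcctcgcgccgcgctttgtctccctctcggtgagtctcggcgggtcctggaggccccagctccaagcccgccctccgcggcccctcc
Steap4, chr5:7960222-7960521, plus strand: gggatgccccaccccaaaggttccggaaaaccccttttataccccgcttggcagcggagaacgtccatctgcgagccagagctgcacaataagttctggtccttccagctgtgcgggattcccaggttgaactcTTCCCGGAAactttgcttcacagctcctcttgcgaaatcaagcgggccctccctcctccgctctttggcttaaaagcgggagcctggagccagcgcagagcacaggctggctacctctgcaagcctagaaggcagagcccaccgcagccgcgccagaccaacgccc
Tnfrsf1a, chr6:125349473-125349772, plus strand: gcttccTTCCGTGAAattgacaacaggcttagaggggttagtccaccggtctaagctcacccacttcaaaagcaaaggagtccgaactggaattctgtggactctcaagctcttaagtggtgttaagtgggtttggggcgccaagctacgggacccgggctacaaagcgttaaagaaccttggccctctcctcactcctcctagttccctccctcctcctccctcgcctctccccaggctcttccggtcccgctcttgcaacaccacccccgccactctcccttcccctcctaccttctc
Cxcl14, chr13:56296502-56296801, minus strand: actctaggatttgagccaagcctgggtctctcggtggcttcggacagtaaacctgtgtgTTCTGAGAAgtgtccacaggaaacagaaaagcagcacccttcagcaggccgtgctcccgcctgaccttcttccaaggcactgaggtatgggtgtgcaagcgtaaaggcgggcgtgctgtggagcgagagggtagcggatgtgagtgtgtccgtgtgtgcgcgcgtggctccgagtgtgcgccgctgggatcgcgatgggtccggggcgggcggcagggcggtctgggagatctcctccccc
The match begins 154 bases before the start in Socs3, 116 in Steap4, 244 in Tnfrsf1a and 191 in Cxcl14. TTCNNNGAA, which reads the same on both strands, was found in 25 of the 176 windows (14.2%) that matched core genes higher in CAC. It was found in 2726 of all 32851 windows (8.3%) and in 814 of the 11878 windows of genes tested (6.85%). A gene can have several windows, and some of the 25 belong to the same gene. Of 211 named and core genes looked for, 161 had a window. Windows of a single chromosome were left out for these genes, but not for the shares over all windows. The other words were searched on both strands. TGACTCA, whose other strand reads TGAGTCA, was in 5.68% of the core windows against 3.75% of those of tested genes. TGACGTCA was in 1.14% against 2.97%. A loose word that resembles the NF-kB site, with several bases left free, was in 26.7% against 26.5%. That word also matches other sequences, so the share of windows with a true NF-kB site was not tested. Stat3, Osmr and Junb have no TTCNNNGAA in these windows.

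Acute phase genes, which the liver secretes in inflammation and which other tissues can also make, rose about as often as all genes with the TPM as deposited. Of 18 tested, 4 rose (Serpina3n, Hp, Lrg1 and Steap4), beside 18.1% of all genes, and 2 fell, beside 1.59%. After rescaling 4 rose and 2 fell, beside 2.97% and 5.12% of all genes. Without CAC replicate 2 the counts were 2 and 0, beside 2.1% and 0.113% of all genes. Serpina3n, a serine protease inhibitor, had 16.7, 234, 25.999, 55.5 and 18.8 TPM in CAC, against 3.37, 4.59, 4.71, 6.31 and 5.28 TPM in NCAC. CAC replicate 2 was the highest by far, yet the other 4 also cleared NCAC, and the log2 difference was 2.85 with an SE of 0.564 (limma adjusted p = 0.000741). Steap4, a metalloreductase of the cell membrane, was at 26.8 to 56.0 TPM in CAC and 14.5 to 21.4 TPM in NCAC (log2 difference 1.10). Haptoglobin (Hp), which binds free haemoglobin, had 20.2, 808, 57.9, 80.4 and 58.5 TPM in CAC and 4.39, 10.4, 20.48, 14.5 and 12.7 TPM in NCAC. CAC replicate 1 overlapped NCAC. Hp was called (log2 difference 2.82, limma adjusted p = 0.00887) but not without CAC replicate 2 (adjusted p = 0.125). Lrg1, a secreted glycoprotein, behaved alike, with an adjusted p of 0.0999 without that library. Lcn2, the iron-siderophore binder lipocalin 2, had 60.8 TPM in CAC replicate 2 and 0.821 to 2.90 TPM in the other 4, against 0.221 to 0.939 TPM in NCAC, and was not called (adjusted p = 0.0592). Lbp, which binds bacterial lipopolysaccharide, was at 12.5 to 44.5 TPM in CAC and 3.69 to 6.07 TPM in NCAC, and its log2 difference of 1.83 was called under every alternative.

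The 2 acute phase genes that fell, Hpx and Fgg, moved together with liver markers. All 7 of the hepatocyte markers that were tested were lower in CAC, and their median log2 difference was -1.66. The 9 markers summed to 0.635, 0.827, 45.0, 0.853 and 2.58 TPM in the CAC libraries, against 0.531, 91.5, 434.5, 68.2 and 1.68 TPM in the NCAC libraries and 0.669 to 16.6 TPM in Con. The high values are those of NCAC replicates 2, 3 and 4 and CAC replicate 3, so the groups overlapped. Alb, serum albumin, had 0.0854, 0.0741, 18.9, 0.113 and 0.381 TPM in CAC and 0.206, 42.3, 221, 28.2 and 0.713 TPM in NCAC. Hamp, the iron hormone hepcidin, followed the same libraries, with 15.5 TPM in NCAC replicate 3. None of the 7 markers was called with the 2 groups alone or without CAC replicate 2. The part of these libraries in other results was not tested library by library, but with all 4 of them left out 115 genes were called. That fit keeps only replicates 1 and 5 of NCAC. The parts of fewer libraries and of liver RNA in this count therefore cannot be told apart.

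Complement, the plasma cascade that tags cells and debris, had the largest share of rises of the lists with the TPM as deposited, but not without CAC replicate 2. Of 20 genes tested, 13 rose and 0 fell, with a median log2 difference of 0.90 beside 0.17 over all genes. The rises spanned the classical pathway: C1qa, C1qb and C1qc of the recognition complex differed by 1.16, 1.25 and 1.18 and the protease C1ra by 1.02 (these 4 named after their values were seen), C4b by 2.08 and C3 by 1.57. C4b had 17.4, 79.4, 20.1, 22.3 and 32.5 TPM in CAC and 3.13, 4.21, 5.70, 10.9 and 9.39 TPM in NCAC (limma adjusted p = 0.000981). Serping1, the C1 inhibitor, had 133, 190, 129, 131 and 156 TPM in CAC and 45.6, 48.7, 48.7, 58.6 and 69.8 TPM in NCAC (log2 difference 1.43, limma adjusted p = 0.000139). For both genes all CAC libraries lay above all NCAC libraries. After rescaling 6 of the 20 were still called higher, and without CAC replicate 2 only C4b and Serping1 were. C4b and C4a are near-identical copies, so reads may be shared between them.

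Macrophages make C1q, and their markers moved the same way. Of 14 macrophage markers tested, 5 rose and 0 fell, with a median of 0.70. They included Cd163, the haemoglobin scavenger receptor, at 3.29 to 12.7 TPM in CAC and 1.15 to 1.97 TPM in NCAC, and the mannose receptor Mrc1 at 5.31 to 11.3 TPM in CAC and 1.74 to 3.08 TPM in NCAC. The marker sum was 157 to 303 TPM in CAC, 94.1 to 265 TPM in NCAC and 71.2 to 129 TPM in Con, so the first groups overlapped through NCAC replicates 4 and 5. Without CAC replicate 2 none of the 14 was called. In bulk tissue more cells of a type and more RNA per cell cannot be told apart, and the part of macrophages in the complement values was not tested.

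Among 17 chemokines tested, 5 rose and 0 fell, beside 18.1% of all genes higher, with 2 higher after rescaling and 2 without CAC replicate 2. Ccl8, which draws monocytes, had 25.9, 64.2, 20.4, 20.9 and 76.5 TPM in CAC against 2.08, 0.595, 2.13, 1.18 and 5.58 TPM in NCAC. CAC replicates 2 and 5 were the highest, and the lowest CAC library was well above the highest NCAC library (log2 difference 3.63, SE 0.780, limma adjusted p = 0.00185). Cxcl14, a chemokine also expressed by fibro-adipogenic progenitors, was at 77.9 to 208 TPM in CAC and 28.6 to 39.2 TPM in NCAC (log2 difference 1.72). Ccl6 and Ccl9 lost their calls after rescaling, without CAC replicate 2 and without NCAC replicate 3. Markers of those progenitors rose in 4 of 12 (1 after rescaling and 1 without CAC replicate 2) and fell in 0, with sums of 1514 to 2225 TPM in CAC and 1092 to 1487 TPM in NCAC, and their part in Cxcl14 was not tested. Neutrophil markers gave 0 calls among 5 tested, and none of 13 T and NK cell markers passed the filter.

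In the list of NF-kB and TNF family genes 8 of 21 rose and 0 fell, and 4 rose after rescaling and 4 without CAC replicate 2. Tnfrsf1a, the main TNF receptor, had 34.4, 57.6, 35.5, 42.6 and 39.7 TPM in CAC and 18.7, 18.9, 19.9, 21.3 and 23.9 TPM in NCAC (log2 difference 0.97, SE 0.163, limma adjusted p = 7.21e-05). Bcl3, an atypical IkB protein that acts in the nucleus, was at 2.28 to 6.94 TPM in CAC and 0.819 to 1.47 TPM in NCAC. Neither gene overlapped between the groups. Further core genes, named after their values were seen, were the shared beta chain Csf2rb of the interleukin-3, interleukin-5 and GM-CSF receptors (log2 difference 1.61), its mouse paralogue Csf2rb2 (1.47), the interleukin-1 receptor Il1r1 (0.92), the adaptor Myd88 (0.84), the brake Irak3 (0.80), the alarmin Il33 (1.06) and Sbno2 (1.54), which is known as a STAT3 target. Csf2rb and Csf2rb2 are close copies, and reads may be shared between them. Of the interferon response genes 1 of 25 tested was called higher, Irf9, and the median of the list was -0.11. After rescaling 0 were higher and 1 lower, and without CAC replicate 2 none of the 25 was called.

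Other genes called under every alternative have varied roles. Atp9a, a flippase of endosomes, had 57.1, 64.7, 57.1, 57.5 and 50.1 TPM in CAC and 12.7, 12.4, 14.01, 11.8 and 13.3 TPM in NCAC, with little spread in either group (log2 difference 2.07, SE 0.222, limma adjusted p = 3.10e-09). The paired membrane proteins Tmem176b and Tmem176a, neighbours in the genome, differed by 2.10 and 1.93. Tmem176a, Apod and Lox were highest in CAC replicate 2. Apod, a lipid carrier, was at 84.2 to 293 TPM in CAC and 17.7 to 40.4 TPM in NCAC (log2 difference 2.00). Nog, which encodes the BMP antagonist noggin, was at 14.5 to 20.47 TPM in CAC and 2.55 to 5.23 TPM in NCAC (1.84), and its ligand gene Bmp4 also rose (0.74). Lox, the enzyme that cross-links collagen, was at 7.09 to 29.6 TPM in CAC and 2.28 to 5.39 TPM in NCAC (1.66), while 0 of 18 collagen genes rose and 1, Col22a1, fell. All of these except Col22a1 were called under every alternative. The mechanosensitive channel Piezo1 (1.74) and Trim72, the membrane repair protein MG53 of muscle (1.10), belong to the same core and were picked after their values were seen. Trim72 had 308, 331, 379, 321 and 426 TPM in CAC and 159, 167, 163, 161 and 164 TPM in NCAC, and CAC replicate 2 was not its highest library.

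The main muscle wasting genes were highest in CAC replicates 2 and 4. Trim63, the ligase MuRF1, had 223, 1799, 218, 553 and 206 TPM in CAC, against 170, 173, 159, 168 and 149 TPM in NCAC. All CAC values lay above NCAC, but only replicates 2 and 4 were far above it, and Trim63 was not called (log2 difference 1.28, SE 0.504, limma adjusted p = 0.0612). Fbxo32, the ligase atrogin-1, had 118, 846, 103, 261 and 101 TPM in CAC and 92.9, 52.9, 66.5, 75.2 and 83.6 TPM in NCAC, with the same 2 libraries on top. It was called (log2 difference 1.39, limma adjusted p = 0.0408), but not after rescaling (adjusted p = 0.106) or without CAC replicate 2 (adjusted p = 0.315), CAC replicate 4 or any 1 of the NCAC libraries. In the list of muscle ubiquitin ligases 11 of 24 rose and 0 fell, and 3 rose under rescaling and 3 without CAC replicate 2. Nedd4l, a membrane protein ligase called in both, had 6.14, 7.45, 11.4, 11.1 and 9.58 TPM in CAC and 4.10, 4.78, 3.47, 3.37 and 3.47 TPM in NCAC (log2 difference 1.04, SE 0.142, limma adjusted p = 1.21e-06), so its highest values were not in replicate 2.

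Metallothioneins, small proteins that bind zinc and are induced by zinc and glucocorticoids, ranged widely among the CAC libraries. Mt1 had 105, 2241, 309, 989 and 61.2 TPM in CAC, against 29.3, 72.4, 32.1, 68.0 and 28.0 TPM in NCAC. Mt2 had 65.3, 2086, 313, 1188 and 42.3 TPM in CAC, against 9.47, 48.8, 9.38, 35.9 and 11.2 TPM in NCAC. In both genes the order of the CAC libraries was replicate 2, 4, 3, 1 and 5, and replicate 5 overlapped NCAC. The log2 differences were 2.98 (limma adjusted p = 0.00226) and 3.96 (limma adjusted p = 0.00168), both were still called with any 1 library left out, and neither was called with CAC and NCAC alone in the fit (adjusted p = 0.0724 and 0.0596). Of the 18 metallothionein and zinc transporter genes tested, 6 rose and 0 fell, and the zinc importer Slc39a1 did so with a narrow spread, at 54.2 to 60.6 TPM in CAC and 39.8 to 44.7 TPM in NCAC, although it was not called after rescaling (adjusted p = 0.172). Rescaling left 2 of the list higher and 1 lower, and 3 were higher without CAC replicate 2.

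The promoters of the metallothionein pair are shown because they hold several copies of the core word of metal response elements, TGCACNC or TGCGCNC, on either strand. The matches are in capitals.
Mt1, chr8:94178839-94179138, plus strand: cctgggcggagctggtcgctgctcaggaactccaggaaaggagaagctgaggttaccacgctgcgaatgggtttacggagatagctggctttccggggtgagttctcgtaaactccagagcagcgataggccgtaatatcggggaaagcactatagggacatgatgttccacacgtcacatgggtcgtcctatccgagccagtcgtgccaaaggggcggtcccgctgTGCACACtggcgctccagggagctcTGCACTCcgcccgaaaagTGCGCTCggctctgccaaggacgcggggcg
Mt2, chr8:94172368-94172667, plus strand: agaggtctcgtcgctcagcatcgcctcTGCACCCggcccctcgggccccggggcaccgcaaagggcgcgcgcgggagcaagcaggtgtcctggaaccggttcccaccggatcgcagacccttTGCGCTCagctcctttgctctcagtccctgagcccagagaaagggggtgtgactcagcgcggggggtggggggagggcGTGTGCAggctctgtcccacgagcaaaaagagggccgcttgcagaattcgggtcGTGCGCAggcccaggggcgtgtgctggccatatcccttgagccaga
Mt1 holds 3 matches and Mt2 holds 4. TGCACNC alone is in 12.6% of all windows and 12.8% of those of tested genes, and TGCGCNC in 15.4% and 26.1%. The Mt1 window also holds the palindrome bound by the glucocorticoid receptor, which is in 156 of all 32851 windows (0.475%), and the windows of Serpina3n and Trim63 hold it too.

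**Figure D2:**
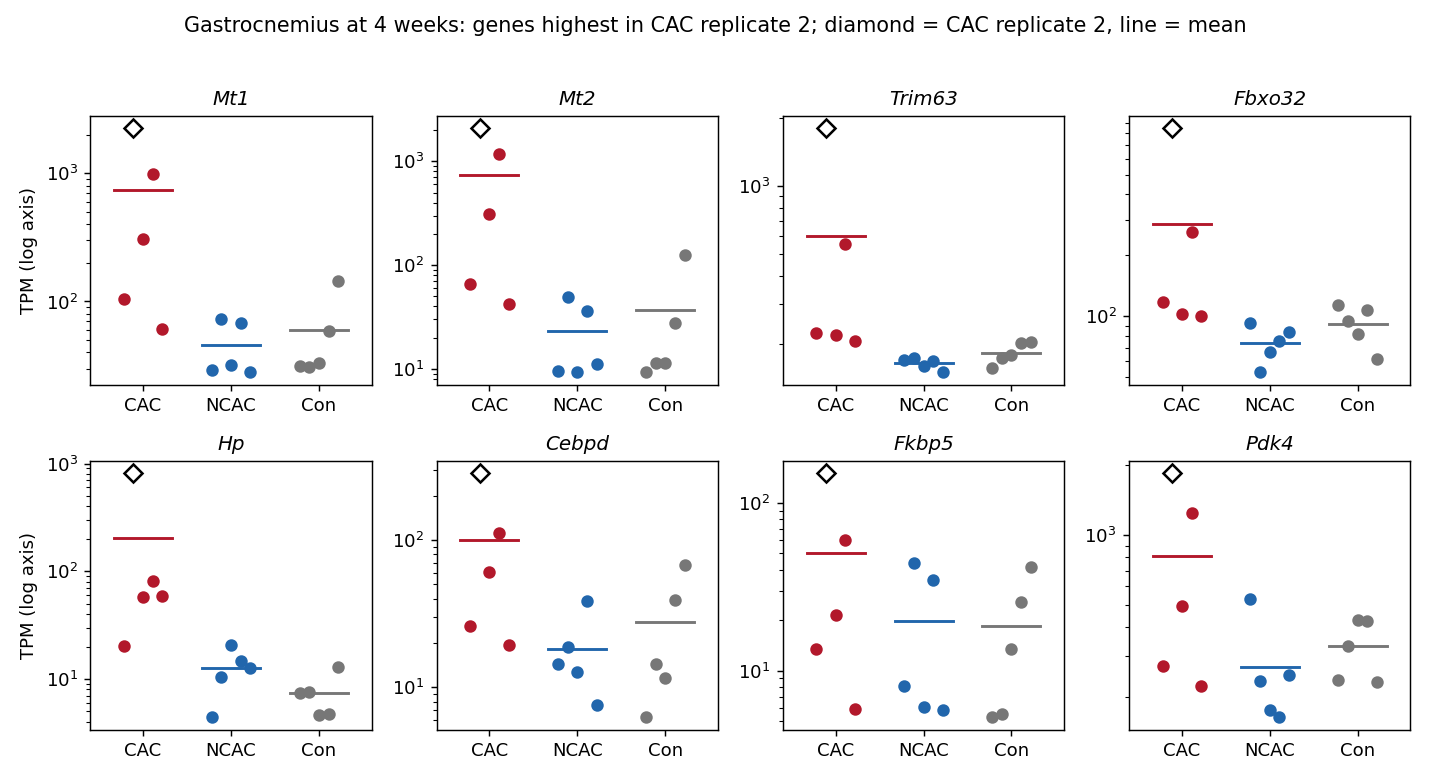
TPM per library at 4 weeks (log axis) for 8 genes in CAC, NCAC and Con muscle, with the mean as a line and CAC replicate 2 as an open diamond. Replicate 2 is the highest library in each panel, with 1799 TPM of Trim63 and 2241 TPM of Mt1, and CAC replicate 4 is the next, while replicate 5 lies among the NCAC values for Mt1, Mt2, Cebpd, Fkbp5 and Pdk4.

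Glucocorticoid response genes gave few calls. Of 20 tested, 2 rose and 0 fell, beside 18.1% of all genes higher, Cebpd and the cortisone-activating enzyme Hsd11b1, and neither was called without CAC replicate 2, nor Cebpd without NCAC replicate 3 or 5. Fkbp5, a chaperone that dampens the glucocorticoid receptor, had 13.5, 150, 21.4, 59.7 and 5.87 TPM in CAC and 8.09, 43.6, 6.02, 34.7 and 5.85 TPM in NCAC. The groups overlapped, NCAC replicates 2 and 4 were also high, and the difference was not called (adjusted p = 0.268). Pdk4, the kinase that shuts pyruvate dehydrogenase when fat is burnt, had 272, 1842, 494, 1239 and 222 TPM in CAC and 530, 235, 175, 163 and 250 TPM in NCAC, and was not called (adjusted p = 0.0673). Among FoxO factors and targets 3 of 12 rose and 0 fell, again beside 18.1% of all genes higher. Of these 12, 1 was higher after rescaling and 1 without CAC replicate 2. Foxo1 itself was at 4.25 to 24.4 TPM in CAC and 3.68 to 14.9 TPM in NCAC (adjusted p = 0.433). Eif4ebp1, the translation repressor 4E-BP1, had 141, 613, 140, 258 and 129 TPM in CAC and 66.4 to 83.3 TPM in NCAC, with no overlap, but leaving out CAC replicate 2 ended the call (adjusted p = 0.0855). Cdkn1a, the cell cycle inhibitor p21, had 15.6, 74.6, 12.7, 28.8 and 21.2 TPM in CAC and 7.60 to 23.0 TPM in NCAC and was not called (adjusted p = 0.369).

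The protein turnover machinery rose by small amounts in many genes, and most of these calls were lost after rescaling and without CAC replicate 2. Cytoplasmic ribosomal protein genes rose in 33 of 77 with a median log2 difference of 0.30, proteasome subunits in 10 of 37 (median 0.25), autophagy genes in 14 of 30 (median 0.28) and lysosomal genes in 11 of 23 (median 0.34), and 0 fell in each list. Over all genes 18.1% rose, and the median was 0.17. After rescaling 0 ribosomal, 0 proteasome, 1 autophagy and 1 lysosomal gene were called, and without CAC replicate 2 the counts were 0, 0, 1 and 0. With the TPM as deposited, proteasome subunit genes summed to 3707, 5393, 3610, 3977 and 3756 TPM in CAC and 3265, 3603, 3242, 3286 and 3370 TPM in NCAC. On that scale each CAC library was above each NCAC library, if by little outside replicate 2. The sums were not rescaled, so whether the groups stay apart after rescaling was not tested. The exception among autophagy genes was Map1lc3b, the LC3 protein of autophagosomes, with 121, 249, 119, 165 and 109 TPM in CAC and 69.1 to 81.7 TPM in NCAC (log2 difference 0.93, limma adjusted p = 0.00293). Of 29 translation factors 17 rose and 0 fell, 4 of them after rescaling and 3 without CAC replicate 2. Eef2, the elongation factor that moves the ribosome along the message, was at 1332 to 2480.3 TPM in CAC and 865 to 1077 TPM in NCAC (log2 difference 0.80), and Eif4b (0.74) and Eif1a (0.85) were also called under every alternative.

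In a list of antioxidant defence genes and targets of the factor NRF2, 12 of 21 rose and 0 fell, beside 18.1% and 1.59% of all genes. Whether NRF2 had a part in these rises was not tested. Nqo1, a quinone reductase, had 40.4, 34.7, 31.7, 30.5 and 31.3 TPM in CAC and 20.6, 13.9, 16.5, 19.0 and 20.4 TPM in NCAC (log2 difference 0.87, SE 0.126, limma adjusted p = 4.57e-06). All CAC values were above all NCAC values, with replicate 2 inside the CAC range. Nfe2l2, which encodes NRF2, had 21.4, 48.1, 23.6, 40.3 and 20.9 TPM in CAC and 13.8 to 18.2 TPM in NCAC (limma adjusted p = 0.00228) and was not called with the 2 groups alone (adjusted p = 0.0663). After rescaling 3 of the list were higher and 1 lower, beside 2.97% and 5.12% of all genes. Without CAC replicate 2 it was 2 higher, beside 2.1% of all genes.

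Most respiratory chain genes were not called, and those called were lower. Of 36 complex I subunits 9 fell and 0 rose (median -0.16), and of 41 nuclear subunits of complexes II to V 8 fell and 0 rose (median -0.15). Atp5g1, which encodes the c-ring subunit of ATP synthase, had 148, 119, 133, 127 and 140 TPM in CAC and 154, 186, 206, 195 and 213 TPM in NCAC (log2 difference -0.51, SE 0.106, limma adjusted p = 0.00120), with no overlap, and it was called under every alternative. Cyc1, cytochrome c1, was at 514 to 829 TPM in CAC and 862 to 938 TPM in NCAC (-0.39), and Ndufb10 of complex I at 232 to 354 TPM in CAC and 368 to 398 TPM in NCAC (-0.36). Neither was called without CAC replicate 2. Rescaling raised the counts to 23 of 36 and 25 of 41 lower, leaving out CAC replicate 2 lowered them to 0 and 1, and with the 2 groups alone they were 0 and 2. Of 16 TCA cycle genes 5 fell and 0 rose, among them citrate synthase (Cs, -0.20) and malate dehydrogenase (Mdh2, -0.31), both not called without CAC replicate 2. Fatty acid oxidation genes gave 1 rise and 0 falls among 21, and Ppargc1a, the coactivator PGC-1alpha, was not called (adjusted p = 0.146).

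RNA of the mitochondrial genome took a smaller share of the total. Its 13 protein-coding genes made up 32.6%, 24.5%, 28.9%, 28.8% and 28.0% of the TPM in CAC, against 35.6%, 29.5%, 34.6%, 34.5% and 31.8% in NCAC. The mean was 28.6% ± 2.85 in CAC, 33.2% ± 2.495 in NCAC and 33.1% ± 2.85 in Con (SD, n = 5 each). The difference of -4.66 percentage points had p = 0.0317 in a two-sided exact permutation test, whose smallest possible p is 0.00794. It was lower for CAC in each of the 10 repeats with a library left out, by -5.66 to -3.66 points. The p was 0.0635 without CAC replicate 2, 4 or 5, or without NCAC replicate 1, 3 or 4. As TPM add up to a fixed total, a smaller share of these genes raises the TPM of all others, and CAC replicate 2 had the smallest share. Its part in the gene lists was not tested.

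**Figure D3:**
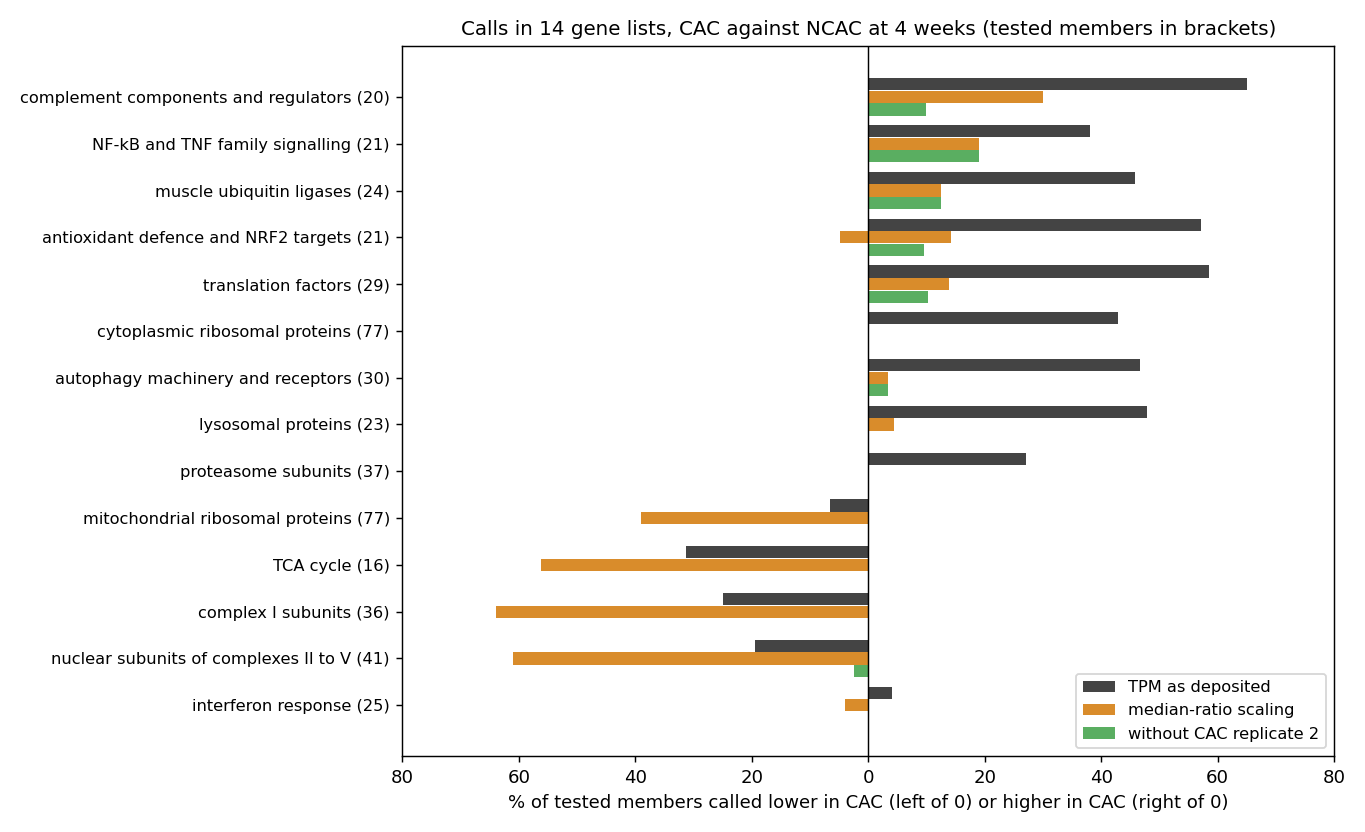
Share of tested members (in %) called lower (left of 0) or higher (right of 0) in CAC than in NCAC for 14 gene lists, with the TPM as deposited, with median-ratio scaling and without CAC replicate 2. Complement has 13 of 20 members higher with the TPM as deposited, 6 after rescaling and 2 without CAC replicate 2, and complex I has 9, 23 and 0 of 36 lower.

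Fast sarcomere genes were called higher about as often as all genes with the TPM as deposited. Myh4, the myosin heavy chain of the fastest fibres, was at 11717 to 15481 TPM in CAC and 11288 to 13308 TPM in NCAC and was not called (log2 difference 0.11, adjusted p = 0.556), with a difference of -0.10 after rescaling. Of 13 fast sarcomere genes 2 rose, beside 18.1% of all genes, Myh1 and Mybpc2, neither of them after rescaling, and of 10 slow ones 0 were called. Of 10 developmental sarcomere genes 0 rose and 1 fell, and of 21 giant, Z-disc and M-band genes 3 rose and 0 fell. After rescaling 2 of the developmental genes were lower, and 2 of the giant, Z-disc and M-band genes were higher and 2 lower. Des, the intermediate filament desmin that links the Z-discs, stood apart with 2091, 3154, 2814, 2690.1 and 2442 TPM in CAC and 1659, 1302, 1498, 1211 and 1697 TPM in NCAC (log2 difference 0.84, SE 0.170, limma adjusted p = 0.000960). No CAC library overlapped NCAC. The mitochondrial calcium uniporter Mcu had 17.1, 14.4, 18.2, 14.5 and 19.3 TPM in CAC and 9.64, 10.3, 10.4, 9.11 and 10.04 TPM in NCAC (log2 difference 0.69, limma adjusted p = 4.59e-05). Chrna1, the acetylcholine receptor subunit that denervated muscle raises, was at 14.8 to 22.5 TPM in CAC and 7.41 to 11.4 TPM in NCAC (0.88, limma adjusted p = 0.0292). Its call was lost after rescaling (adjusted p = 0.0961), without CAC replicate 2 or 4 and without NCAC replicate 1 or 4.

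Of 20 genes of the myostatin and activin pathway 4 rose and 1 fell, beside 18.1% and 1.59% of all genes. After rescaling 2 rose and 1 fell, beside 2.97% and 5.12% of all genes. Of 18 genes of IGF and insulin signalling 5 rose and 0 fell, 1 after rescaling and 0 without CAC replicate 2. Mstn, the growth inhibitor myostatin, was at 22.1 to 56.1 TPM in CAC and 17.2 to 37.0 TPM in NCAC (adjusted p = 0.214), and Igf1, the growth factor, at 3.17 to 5.48 TPM in CAC and 1.90 to 2.86 TPM in NCAC, with no overlap but no call (adjusted p = 0.0772). The activin receptor Acvr2b, through which myostatin acts, rose by 0.63 under every alternative, and so did the myogenic factor Myf6, also called MRF4, with 98.6 to 221 TPM in CAC and 64.6 to 104 TPM in NCAC (0.89) and overlap. Eda2r, a receptor of the TNF family and p53 target, had 5.82, 14.8, 7.58, 11.2 and 5.56 TPM in CAC and 2.98, 2.31, 2.77, 2.31 and 2.74 TPM in NCAC, with no overlap (1.38, limma adjusted p = 0.000940).

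With the TPM as deposited 197 genes fell, with a median size of 0.45 on the log2 scale, against 0.38 for the 2238 that rose. Ighm, the heavy chain of immunoglobulin M, had 16.5, 6.47, 16.9, 33.7 and 24.7 TPM in CAC, against 46.5, 103, 47.6, 138 and 137 TPM in NCAC. All CAC values were below all NCAC values (log2 difference -2.22, SE 0.505, limma adjusted p = 0.00321). In Con, Ighm stood at 61.4 to 172 TPM. B and plasma cell markers summed to 9.63 to 34.9 TPM in CAC, 48.4 to 145 TPM in NCAC and 63.2 to 176 TPM in Con, and Ighm makes up most of these sums. Of the 12 markers 9 did not pass the filter, and whether cells or RNA per cell were fewer cannot be told apart.

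Actc1, the cardiac actin that fetal and regenerating muscle expresses, had 204, 31.8, 95.6, 244 and 216 TPM in CAC and 282, 771, 377, 543 and 891 TPM in NCAC (log2 difference -2.04, limma adjusted p = 0.0294). The groups did not overlap, but leaving out CAC replicate 2 (adjusted p = 0.223) or NCAC replicate 4 or 5 ended the call. Metrn, which encodes the secreted factor meteorin, had 26.6, 14.1, 24.0, 19.6 and 28.4 TPM in CAC and 37.8, 42.6, 40.2, 40.0 and 42.7 TPM in NCAC (-0.86, SE 0.166, limma adjusted p = 0.000550). Mical2, an enzyme that oxidises actin, had 22.1, 10.1, 21.8, 18.7 and 14.7 TPM in CAC and 31.3, 34.8, 27.005, 27.9 and 38.7 TPM in NCAC (-0.87, limma adjusted p = 0.000121). Both held under every alternative. Ostn, the muscle-secreted peptide musclin, was at 4.14 to 40.0 TPM in CAC and 28.3 to 66.8 TPM in NCAC (-1.30, limma adjusted p = 0.0332), with overlap, and lost its call without CAC replicate 2 or NCAC replicate 1, 3, 4 or 5. Rsph1, Crybb1 and Vtcn1 were also lower under every alternative, with log2 differences of -1.005, -0.87 and -0.80, at low levels. Alas1, the first enzyme of haem synthesis, fell by 0.58 on the log2 scale, and it was named after its values were seen.

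**Figure D4:**
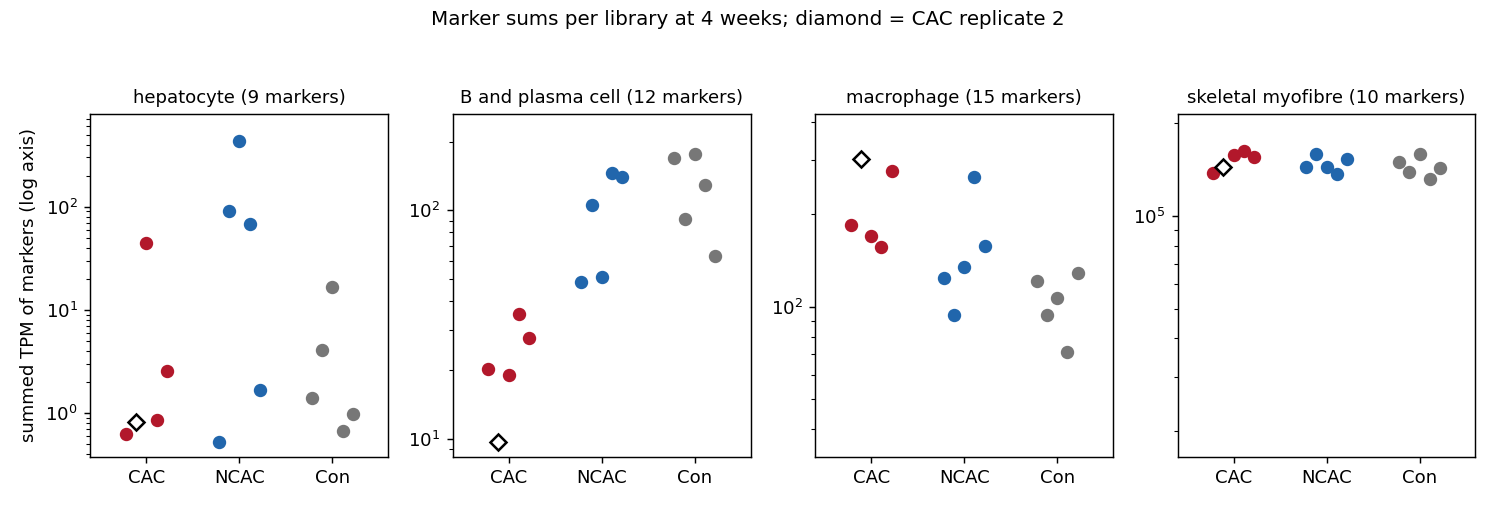
Summed TPM of marker genes per library at 4 weeks (log axes) for hepatocytes, B and plasma cells, macrophages and skeletal muscle fibres in CAC, NCAC and Con, with CAC replicate 2 as an open diamond. B and plasma cell sums of 9.63 to 34.9 TPM in CAC lie below the 48.4 to 145 TPM of NCAC, the other 3 sums overlap between CAC and NCAC, and the hepatocyte sum reaches 434.5 TPM in NCAC replicate 3.

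The same contrast at the neighbouring weeks was made with other libraries. CAC against NCAC gave 145 called genes at 2 weeks (1.17%), 143 higher (1.16%) and 2 lower (0.0162%), and 8500 at 6 weeks (68.7%), 7926 higher (64.1%) and 574 lower (4.64%), beside the 2435 at 4 weeks. Of the genes called at 4 weeks, 93.8% were called in the same direction at 6 weeks, beside 68.7% of all genes in either direction. These shared genes were 26.9% of those called at 6 weeks. All counts of this paragraph are with the TPM as deposited unless said otherwise. The log2 factors of the median-ratio scaling at 6 weeks were 0.19 to 0.49 in CAC and -0.32 to -0.039 in NCAC. How far the overlap between weeks depends on the scaling was not tested. The 108 shared with 2 weeks were 4.44% of the 4-week genes and 74.5% of the 2-week genes. Of the 189 core genes, 61 were called at 2 weeks and 188 at 6 weeks with the same sign. The test of the difference itself found 0 genes between the 4-week and the 2-week contrast, and 0 with array weights. In that test 467 genes had an unadjusted limma p below 0.05, where 618 are expected by chance. Between 6 and 4 weeks the test found 1 gene (0.00809%), Abca7, and 2242 without CAC replicate 2 of 4 weeks.

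Single genes took different courses, given here as side by side values with the TPM as deposited. Over all genes the CAC minus NCAC difference changed by a median of 0.043 from 2 to 4 weeks and of 0.20 from 4 to 6 weeks. How far the courses depend on the scaling was not tested. The log2 difference of Stat3 over weeks 2, 4 and 6 was 1.34, 1.76 and 1.95, and Socs3 differed by 2.28, 3.38 and 4.32. At 2 weeks Socs3 ran from 3.55 to 66.4 TPM in CAC, with overlap with the 1.38 to 4.99 TPM of NCAC, whereas at 4 weeks it was 40.3 to 70.0 TPM in CAC. Trim72 differed by 1.04, 1.10 and 1.16, and Mcu by 0.64, 0.69 and 0.52, with all 3 weeks called for both. Of all genes, 1.16%, 18.1% and 64.1% were called higher at these weeks. The wasting genes were near 0 at 2 weeks: Trim63 differed by 0.17, 1.28 and 2.16, Fbxo32 by 0.19, 1.39 and 1.97, and Cebpd by 0.03, 1.92 and 3.85. At 6 weeks Trim63 and Mt1 had values of 330 to 2134 TPM and 761 to 5809 TPM in CAC, and CAC replicate 2 of 4 weeks lay inside both ranges. Nqo1 and Atp5g1 went another way, with differences of 0.24, 0.87 and 0.32 for Nqo1 and -0.07, -0.51 and -0.14 for Atp5g1. None of these genes passed the test of a difference between weeks.

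**Figure D5:**
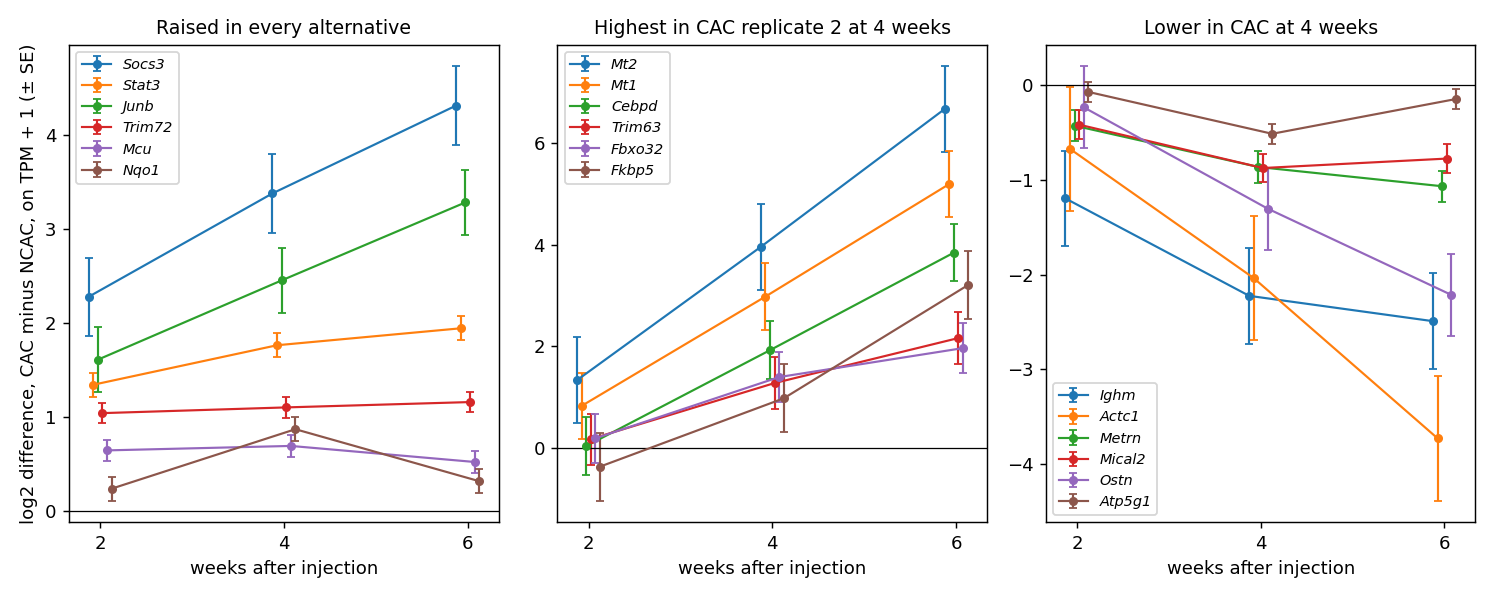
Log2 difference on TPM + 1, CAC minus NCAC, with its SE and the TPM as deposited, at 2, 4 and 6 weeks after injection for 18 genes in 3 panels (core rises, genes highest in CAC replicate 2, genes lower in CAC). Stat3 goes through 1.34, 1.76 and 1.95, Trim63 through 0.17, 1.28 and 2.16, and Nqo1 and Atp5g1 are farthest from 0 at 4 weeks.

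Set against the mock-injected mice of the same week, NCAC muscle gave 0 called genes of 12364 (0.0%), and 0 with array weights. An unadjusted limma p below 0.05 was found for 224 genes, where 618 are expected by chance. Leaving out NCAC replicate 1 gave 18 and leaving out NCAC replicate 5 gave 15. This comparison shares the NCAC libraries with the one above. Stat3 differed by 0.08 and Socs3 by 0.63 between NCAC and Con, with SEs of 0.129 and 0.417.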

How the data were processed

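The deposited table holds TPM for 47643 gene symbols in 62 libraries, 1 column each, made by the authors; the labels give stranded mRNA libraries on an Illumina NovaSeq, and the submitters' processing notes give the build mm10. How reads were aligned and counted is "not given in the sources used here". All columns matched a labelled sample. Groups came from the descriptions, since 1 treatment tag names cachectic cells for every library. Depth was estimated from the steps between TPM values with exon lengths of GENCODE, and 78.2% to 79.6% of the recovered values of 1 to 20 reads lay within 0.02 of a whole number.

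Genes with at least 1 TPM in at least 5 libraries were fitted on log2(TPM + 1) by limma (version 3.58.1, R 4.3.3), 1 mean for each of 12 groups and a variance trend, with two-sided tests and p adjusted over 12364 genes. A fold on TPM + 1 understates changes of low genes. The fit was run on simulated data with known changes, in which a gene had the same spread in all groups. No simulated library stood apart as CAC replicate 2 did, so the simulation does not cover that case. The alternatives tried were a filter at 5 TPM or none, a pseudocount of 0.1, median-ratio scaling, the compared groups alone, array weights, a replicate block and each library left out. Chosen after seeing the data were the core genes, list counts without CAC replicate 2, rescaling without it, and leaving out 4 libraries rich in hepatocyte RNA.

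Named genes were 20 sentinels (Gdf15 did not pass the filter), the 12 largest rises and falls without overlap between the groups, up to 4 called members of lowest p per list, and the 6 genes of lowest p of other comparisons; clone names were passed over. Members and lists were chosen with earlier results of these data known. Lists were counted, not tested. The labels call the libraries biological replicates.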

Additional observations from a re-analysis of the deposited data

Results flagged for a closer look

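Single libraries stood far from the other 4 of their group for 5 genes of the naming rule. In CAC replicate 2, Lcn2 had 60.8 TPM with the other CAC libraries at 0.821 to 2.90 TPM, Apod 293 TPM with the others at 84.2 to 106 TPM, Tmem176a 25.7 TPM with the others at 11.8 to 13.2 TPM, and Lbp 44.5 TPM with the others at 12.5 to 18.02 TPM. In NCAC replicate 1, Cdkn1a had 7.60 TPM with the other NCAC libraries at 17.5 to 23.0 TPM. For independent and normally spread values, chance alone would set apart about 1 in 20 groups, which is 4 of the 80 groups of values looked at. Here 5 were found, and 4 of the 5 fall in 1 library. The genes share the same libraries and some were named by their values, so this count cannot show what part chance had.

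The CAC minus NCAC difference of Abca7, a lipid transporter, was larger at 6 weeks than at 4 weeks by 0.67 on the log2 scale (limma adjusted p = 0.00765). At 4 weeks Abca7 was at 5.14 to 6.62 TPM in CAC and 4.93 to 6.20 TPM in NCAC, and at 6 weeks at 7.00 to 9.74 TPM in CAC and 3.95 to 5.38 TPM in NCAC.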

How the results depend on the processing

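The count of genes called between CAC and NCAC was 2435, and it was 1585 with no filter, 1000 with median-ratio scaling, 431 with the 2 groups alone, 188 with rescaling and CAC replicate 2 left out and 115 without the 4 libraries rich in hepatocyte RNA, which leaves only NCAC replicates 1 and 5 in that group. It was 2576, 2333 and 3454 with a pseudocount of 0.1, a filter at 5 TPM and array weights. Leaving out 1 library gave 274 to 3313, with 274 without CAC replicate 2 and 1273, 897 and 1228 without NCAC replicates 1, 3 and 4. Between NCAC and Con it was 0, and 0 to 18 with a library left out. For the change of the difference between 4 and 2 weeks it was 0, and 0 to 11 with a library left out. Between 6 and 4 weeks it was 1, and 0 with median-ratio scaling, 0 with the compared groups alone, 1444 with array weights and 1 to 2242 with a library left out (400 without CAC replicate 5 of 6 weeks). The mitochondrial share differed by -5.66 to -3.66 points with a library left out. Myh4 turned to -0.10 with median-ratio scaling, and no value on either scaling was called. Of the 185 named genes that were called, 107 were called with the same sign after rescaling, 72 with the 2 groups alone and 50 without CAC replicate 2. The main fit did not pair mice by replicate number. Deviations of same-numbered libraries correlated at -0.026 to 0.29, and those of libraries with other numbers at -0.33 to 0.23. Not every library correlated best with its own number, and the replicate block gave 3006 calls. With so few pairs these values cannot show whether the numbers pair the mice. The causes of these changes were not tested. The range of estimated depth overlapped between the groups.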
